A study of Mus musculus with 6 samples.

Results

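The Hoxa and Hoxb cluster genes described here were Hoxa3, Hoxa5, Hoxa7, Hoxa9, Hoxa10, Hoxb2, Hoxb3, Hoxb4, Hoxb5 and Hoxb6. They were picked by name, as rows of the deposited normalized table with their counts from the read-count table. All 10 were present among the 27179 genes of the count table. Of these, 8 were among the 12179 genes of the normalized table, which had no row for Hoxa3 or Hoxb2, so those genes are described by their counts. RNA-Seq was performed on long-term hematopoietic stem cells (LT-HSCs), sorted from bone marrow as CD150+CD48- cells within the lineage-negative, Sca-1-positive, Kit-positive (LSK) compartment. The C57BL/6 mice were 8 weeks old. There were 3 libraries labelled WT and 3 labelled Foxm1 heterozygous (Foxm1 HET), and values listed for a genotype follow replicates 1, 2 and 3 in order. The study made Foxm1 HET mice from a floxed Foxm1 allele with Tie2-Cre, which is active in endothelial and blood cells, or with Mx1-Cre. The description of the RNA-Seq experiment did not say which driver was used, and the titles of the Foxm1 HET libraries named the floxed allele without a Cre, a genotype that served as a control elsewhere in the study. Groups were therefore taken from the genotype labels.

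Hox genes encode homeodomain transcription factors that lie in 4 clusters in mammals, in the same order as their domains of activity along the body axis. Genes of the Hoxa and Hoxb clusters are active in hematopoietic stem and progenitor cells and are silenced as blood cells mature, with trithorax-group (MLL) complexes keeping them open and Polycomb complexes keeping them closed. HOX proteins bind DNA together with the TALE homeodomain proteins of the PBX and MEIS families, and Hoxa9 with Meis1 is a well-known driver of myeloid leukemia. The comparison of Foxm1 HET with WT libraries asked whether these genes differed in LT-HSCs when 1 copy of Foxm1, a forkhead factor of the cell cycle, was deleted.

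Library totals ran from 14573002 to 25798509 counted reads, and genes with at least 10 reads numbered from 4467 to 9894. Foxm1 HET replicate 2 had the lowest value on both measures. Foxm1 itself had 1182, 2615 and 2942 reads in the WT libraries against 659, 5 and 742 in the Foxm1 HET libraries, with a log2 fold change of -3.30 (SE 2.33, edgeR quasi-likelihood adjusted p = 0.961). The stem cell genes Kit and Hlf were abundant in every library, with Kit between 10720 and 48031 reads. The genes of surface proteins used in the sort were uneven. Ly6a, which encodes Sca-1, had 4 reads or fewer in WT replicates 2 and 3 and in Foxm1 HET replicate 2. Slamf1, which encodes CD150, had 8 reads or fewer in 4 of the 6 libraries.

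The largest difference among the Hox genes was in Hoxa5, which was higher in every Foxm1 HET library than in every WT library and was the only one of the 6 Hox genes tested to pass the threshold. Hoxa7 was also higher in every Foxm1 HET library, and Hoxa9 was higher in 2 of the 3, but neither passed the test. Hoxa10 had reads mainly in WT libraries and overlapped between genotypes. Hoxb4 and Hoxb5 were detected above 1 read only in WT replicate 1 and Foxm1 HET replicate 3. Hoxb6 had reads only in WT replicate 1, and Hoxb2 only in Foxm1 HET replicate 1. Hoxb3 had high and low libraries in both genotypes, and no Hoxb gene separated the genotypes. In sorted bulk cells, a change in the share of cells that express a gene and a change in RNA per cell cannot be told apart.

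**Figure D1:**
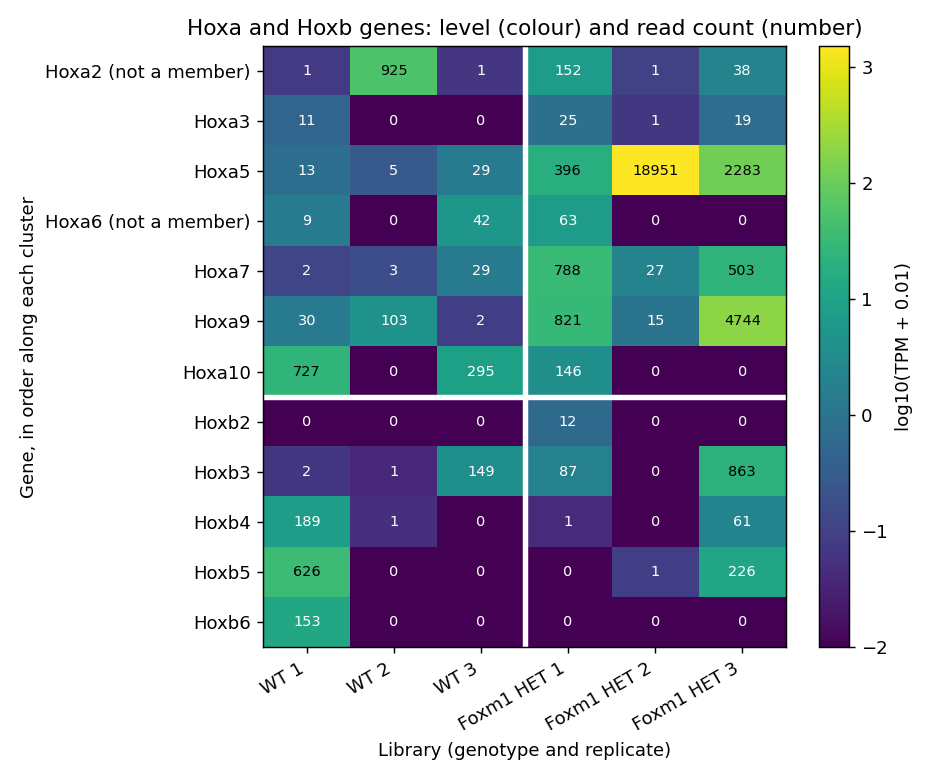
Level of each Hoxa and Hoxb gene in each library, with genes in rows ordered along each cluster and libraries in columns. Color gives log10(TPM + 0.01), where TPM is the read count divided by exon length and scaled to the same total in every library, and the printed number is the read count. Hoxa5 and Hoxa7 are brighter in all 3 Foxm1 HET columns than in the WT columns, and most Hoxb cells of the plot are dark.

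Hoxa5 promotes myeloid over erythroid fate when it is expressed in progenitors. It lies on the minus strand at chr6:52201754-52204587 (GRCm38) and has 2 exons. The WT libraries held 13, 5 and 29 reads, against 396, 18951 and 2283 reads in the Foxm1 HET libraries. All Foxm1 HET libraries thus stood above all WT libraries, and 1 of them, replicate 2, held 97.7% of the gene's summed CPM (the count scaled by library size, here with TMM factors) and 92.4% by library size alone. On the log2 CPM scale, the level was -0.46 ± 1.33 in WT and 6.89 ± 4.18 in Foxm1 HET (mean ± SD, n = 3 each). The log2 fold change was 10.15 (SE 2.17), with an adjusted p of 0.00346 by the edgeR quasi-likelihood test over 8195 genes. Of the 6 Hox genes tested, 1 was called, against 0.329% of all genes tested. In the exact permutation test of the 2 genotypes, two-sided, p was 0.1, the smallest that 3 libraries against 3 can give. Without Foxm1 HET replicate 2, the Hoxa5 log2 fold change was 5.26 with an adjusted p of 0.903 (edgeR). The call was also lost without WT replicate 1 (adjusted p = 0.207), without WT replicate 2 (0.219) or without WT replicate 3 (0.0553), while the log2 fold change stayed between 9.68 and 11.23. A block for the replicate number brought it to 6.14, with an adjusted p of 1 (edgeR). Foxm1 HET replicates 1 and 3, at 17.4 and 112 TPM, still lay above the WT range of 0.269 to 1.44 TPM. None of the 50-base stretches of annotated Hoxa5 transcripts occurred in another gene, and no exon base was shared with another gene on either strand.

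**Figure D2:**
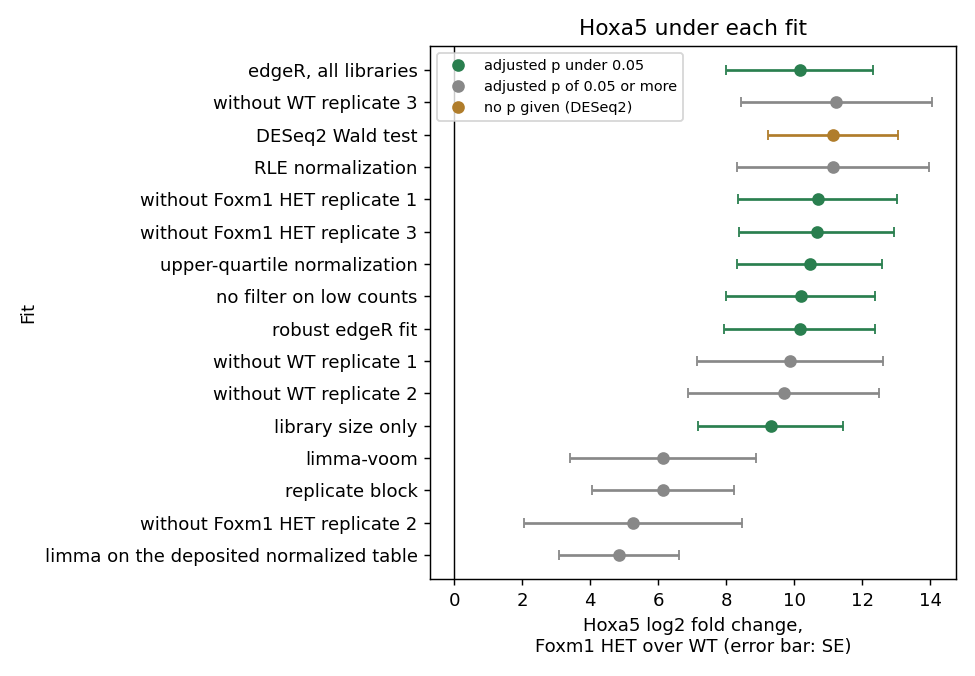
Hoxa5 log2 fold change, Foxm1 HET over WT (horizontal axis), under each fit (vertical axis), with points for the estimate and bars for its standard error. All estimates lie above 0, from 4.84 to 11.23, and the adjusted p is under 0.05 in the fits drawn in green.

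Hoxa7 and Hoxa9 lie upstream of Hoxa5 on the same strand. Hoxa7, at chr6:52215623-52218573, is expressed in stem and progenitor cells and in MLL-rearranged leukemia. The WT libraries held 2, 3 and 29 reads, against 788, 27 and 503 reads in the Foxm1 HET libraries. By read count Foxm1 HET replicate 2 lay just below WT replicate 3. After scaling by library, the lowest Foxm1 HET library was above the highest WT library, at 2.09 against 0.92 log2 CPM. Without the logarithm this was 4.17 against 1.81 CPM with TMM factors, and 1.85 against 1.35 CPM by library size alone. The TMM factor of Foxm1 HET replicate 2 was 0.453, so the margin depended on the scaling. The means were -1.28 ± 1.91 in WT and 3.35 ± 1.16 in Foxm1 HET (log2 CPM, SD, n = 3), and the log2 fold change was 4.17 (SE 3.37, edgeR adjusted p = 0.982). It ran from 3.66 without WT replicate 2 to 6.69 without WT replicate 3. Of the 50-base stretches of annotated Hoxa7 transcripts, 18.7% also occurred in the antisense gene Hoxaas3, which had 124 reads in Foxm1 HET replicate 1 and none elsewhere. However, no exon base over which Hoxa7 was counted was shared with another gene on either strand.

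Hoxa9, at chr6:52224054-52227370, is required for normal stem cell repopulation. The WT libraries held 30, 103 and 2 reads, against 821, 15 and 4744 reads in the Foxm1 HET libraries. Foxm1 HET replicates 1 and 3 were above all WT libraries, and Foxm1 HET replicate 2 fell within the WT range. The log2 CPM means were 0.15 ± 2.27 in WT and 4.17 ± 2.79 in Foxm1 HET (SD, n = 3), with a log2 fold change of 4.50 (SE 3.06, edgeR adjusted p = 0.952). It was 2.67 without Foxm1 HET replicate 3 and up to 5.89 without WT replicate 2.

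Genotypes that did not overlap, with Foxm1 HET higher, were thus seen for Hoxa5 and Hoxa7 among the 6 tested genes, and 4.12% of all genes tested had that pattern. With scaling by library size alone the pattern held for the same 2 genes, and for 5.05% of all genes tested. The log2 fold change was above 0 for 5 of the 6 and for 45.4% of all genes tested. Hoxa5, Hoxa7 and Hoxa9 reached 10 reads in all 3 Foxm1 HET libraries but in at most 2 WT libraries, so they passed the filter on low counts only with their Foxm1 HET libraries. The counts of genes given here are therefore a description and no evidence for the group. In the normalized table, the levels of Hoxa9 did not overlap either, at 1.71 ± 0.67 in WT and 5.12 ± 2.16 in Foxm1 HET (deposited log2 value, SD, n = 3). That made 3 of the 8 Hox genes in the table, where 5.87% of all genes had the pattern. Foxm1 HET replicate 2, with its 27 Hoxa7 reads, stood at 4.02 for Hoxa7 in that table, above the 3.21 of Foxm1 HET replicate 3 with 503 reads. For Hoxa9, Foxm1 HET replicate 2 stood at 3.62 with 15 reads, above the 2.49 of WT replicate 2 with 103 reads. That pair decided the separation of Hoxa9, and its order was reversed in log2 CPM, at 1.26 against 2.21. The deposited values therefore do not rank libraries as their read counts do. With limma on that table no Hox gene passed the adjusted threshold (adjusted p = 0.930 for Hoxa5, Hoxa7 and Hoxa9). Those 3 had an unadjusted limma p under 0.05, as did 2.26% of all genes in that direction. DESeq2 gave Hoxa7 an adjusted p of 0.266 and Hoxa9 one of 0.180, both with an unadjusted p under 0.05, as had 5.99% of genes with a p in that direction. DESeq2 withheld a p for Hoxa5, with Foxm1 HET replicate 2 as the count outlier. Hoxa5 was not alone in this, since a p was withheld for 1848 of the 8195 genes fitted.

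The Hoxa5, Hoxa7 and Hoxa9 promoters are printed because these genes had the highest levels in Foxm1 HET libraries. Of the Hoxa10 windows, 1 is printed, picked because it holds a match to the core that forkhead proteins such as Foxm1 bind. Each is the 250 bases before a RefSeq transcript start (GRCm38.p6), written 5′ to 3′ on the minus strand, and capitals mark a motif found by searching both strands.
Hoxa5 (chr6:52204588-52204837): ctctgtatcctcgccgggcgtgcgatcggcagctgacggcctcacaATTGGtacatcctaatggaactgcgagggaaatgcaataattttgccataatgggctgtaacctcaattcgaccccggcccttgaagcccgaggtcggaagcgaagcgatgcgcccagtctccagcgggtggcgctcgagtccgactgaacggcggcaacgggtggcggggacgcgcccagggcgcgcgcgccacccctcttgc
Hoxa7 (chr6:52218574-52218823): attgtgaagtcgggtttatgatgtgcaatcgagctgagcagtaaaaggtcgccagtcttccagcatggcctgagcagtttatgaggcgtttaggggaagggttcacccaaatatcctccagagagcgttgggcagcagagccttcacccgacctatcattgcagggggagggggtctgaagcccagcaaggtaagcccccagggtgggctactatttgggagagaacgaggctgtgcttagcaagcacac
Hoxa9 (chr6:52227371-52227620): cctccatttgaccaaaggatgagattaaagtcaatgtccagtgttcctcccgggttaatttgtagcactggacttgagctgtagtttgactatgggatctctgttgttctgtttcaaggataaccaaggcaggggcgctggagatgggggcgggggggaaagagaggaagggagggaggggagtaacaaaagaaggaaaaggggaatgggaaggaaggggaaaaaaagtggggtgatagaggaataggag
Hoxa10 (chr6:52240855-52241104): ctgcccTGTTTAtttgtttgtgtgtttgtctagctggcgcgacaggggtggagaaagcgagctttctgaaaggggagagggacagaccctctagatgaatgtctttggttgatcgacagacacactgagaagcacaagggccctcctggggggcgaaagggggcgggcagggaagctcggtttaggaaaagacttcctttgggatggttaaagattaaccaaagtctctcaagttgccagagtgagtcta
The motifs searched were the forkhead core TAAACA, the cell cycle homology region TTTGAA, the CCAAT box, the MEIS site TGACAG and the HOX-PBX site TGATTNAT. The capitals in Hoxa5 are a CCAAT box read on the opposite strand (ATTGG), and those in Hoxa10 a forkhead core read the same way (TGTTTA). The Hoxa10 window that is not printed, at chr6:52234940-52235189, held a CCAAT box and no forkhead core. No motif was found in the Hoxa7 and Hoxa9 windows. Of the 7 windows that the RefSeq table held for 6 of the 10 genes, 1 had the forkhead core, against 12.0% of all 32851 promoter windows, and 2 had the CCAAT box, against 33.8%. The MEIS site was in 1 of the 7, the Hoxa3 window, and in 15.9% of all windows. The cell cycle homology region and the HOX-PBX site were in 0 of the 7, against 16.0% and 2.82% of all windows. The Hoxa5 window had 28 CpG dinucleotides, against a median of 6 over all windows, and Hoxa9 had 3.

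Hoxa10 and Hoxa3 differed in pattern from these genes. Hoxa10, at chr6:52231197-52240854, drives proliferation of progenitors. The WT libraries held 727, 0 and 295 reads, against 146, 0 and 0 reads in the Foxm1 HET libraries. Each genotype had at least 1 library with none, so the genotypes overlapped. The log2 fold change was -3.73 (SE 3.25, edgeR adjusted p = 0.985), and it moved to -11.48 without Foxm1 HET replicate 1, which held all Foxm1 HET reads. Hoxa3, at chr6:52169062-52213067, acts in the development of the pharyngeal arches. It had 11, 0 and 0 reads in the WT libraries against 25, 1 and 19 in the Foxm1 HET libraries. These counts are low in all libraries, and the log2 fold change of 1.33 (SE 2.42, edgeR adjusted p = 0.998) rose to 6.46 without WT replicate 1. Of the exon bases of Hoxa3, 21.4% also belonged to antisense genes of the count table, and whether counting used strand was not stated.

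**Figure D3:**
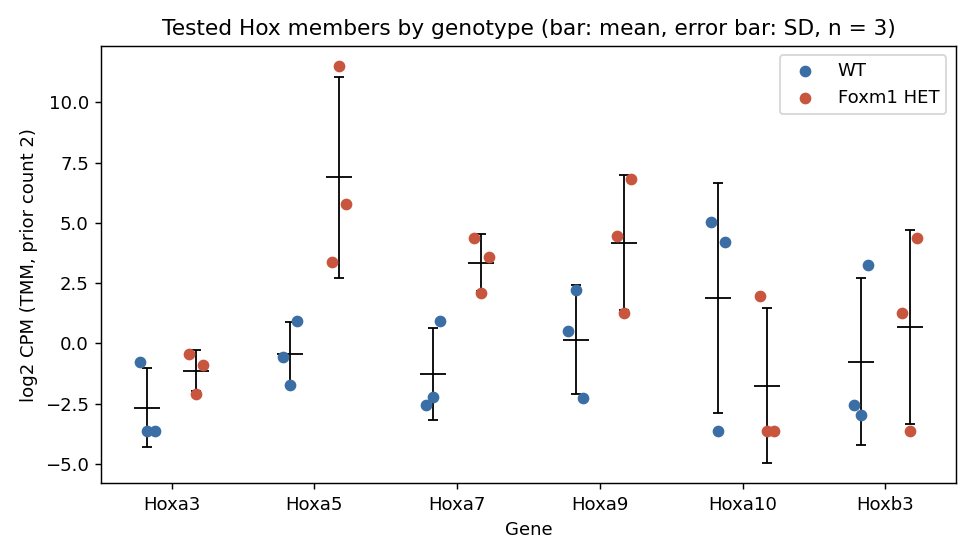
Log2 CPM (vertical axis, TMM scaling, prior count 2) of the 6 Hox genes tested, with a point for each library, a bar for the mean and an error bar for the SD (n = 3). Only Hoxa5 and Hoxa7 have every Foxm1 HET point above every WT point.

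In the Hoxb cluster, only Hoxb3 passed the filter on low counts. Hoxb3, at chr11:96323126-96347930, had 2, 1 and 149 reads in the WT libraries against 87, 0 and 863 in the Foxm1 HET libraries. High and low libraries occurred in both genotypes. The log2 fold change was 1.28 (SE 3.02, edgeR adjusted p = 0.998), and it changed sign to -1.30 without Foxm1 HET replicate 3. The antisense gene Hoxb3os covers 60.5% of the exon bases of Hoxb3 and 58.7% of those of Hoxb2 in the GENCODE annotation, so their reads could include antisense RNA if counting ignored strand.

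Hoxb4 expands stem cells when overexpressed, and Hoxb5 has been used as a marker of LT-HSCs in mouse bone marrow. Hoxb4 (chr11:96318267-96321638) had 189, 1 and 0 reads in the WT libraries against 1, 0 and 61 in the Foxm1 HET libraries. Hoxb5 (chr11:96303512-96306121) had 626, 0 and 0 reads in the WT libraries against 0, 1 and 226 in the Foxm1 HET libraries. Both genes were thus detected above 1 read only in WT replicate 1 and Foxm1 HET replicate 3. Hoxb6 (chr11:96299171-96301569) had 153 reads in WT replicate 1 and none in the other 5 libraries. Hoxb2 (chr11:96351632-96354016), a segment gene of the hindbrain, had 12 reads in Foxm1 HET replicate 1 and none in the other 5. These 4 genes fell below edgeR's filter, since none had enough reads in 3 libraries. Fitted without the filter, none passed the threshold, with edgeR adjusted p of 0.547 for Hoxb2, 0.822 for Hoxb4, 0.811 for Hoxb5 and 0.538 for Hoxb6. Nor did Hoxb4, Hoxb5 or Hoxb6 in limma on the normalized table, where the adjusted p were 0.930, 0.962 and 0.930.

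Per length, Hoxa5 had the highest mean level over the 6 libraries, at 276 ± 612 TPM, followed by Hoxa9 at 38.3 ± 76.7 and Hoxa7 at 10.1 ± 14.6 (SD, n = 6). Hoxb5 followed at 7.82 ± 14.4 TPM, Hoxa10 at 6.28 ± 9.84 and Hoxb3 at 4.53 ± 8.42. Hoxb6 at 2.09 ± 5.12, Hoxb4 at 1.71 ± 3.20, Hoxa3 at 0.338 ± 0.366 and Hoxb2 at 0.101 ± 0.247 were the lowest. No pair of neighbors in this order differed by more than their SD. The order differed by genotype. In WT libraries, Hoxb5 at 11.9 ± 20.7 TPM and Hoxa10 at 11.3 ± 12.7 led, followed by Hoxb6 at 4.18 ± 7.25, Hoxb4 at 2.68 ± 4.60, Hoxa9 at 2.03 ± 2.31 and Hoxb3 at 1.27 ± 2.13 (SD, n = 3). Hoxa5 at 0.820 ± 0.589 and Hoxa7 at 0.550 ± 0.723 TPM came after these. In Foxm1 HET libraries, Hoxa5 led at 551 ± 843 TPM, followed by Hoxa9 at 74.6 ± 104, Hoxa7 at 19.7 ± 16.0 and Hoxb3 at 7.79 ± 11.9. Within each genotype too, no neighbors differed by more than their SD.

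The sum of the 5 Hoxa genes was 27.9, 5.0 and 11.7 TPM in the WT libraries, against 84.9, 1525 and 330 TPM in the Foxm1 HET libraries. The sum of the 5 Hoxb genes was 56.4, 0.0665 and 3.73 TPM in the WT libraries, against 2.56, 0.0795 and 34.7 TPM in the Foxm1 HET libraries. The Hoxa sums did not overlap between genotypes and the Hoxb sums did. In Foxm1 HET replicate 2, however, Hoxa5 alone was 1522 of the 1525 TPM. Hoxa7 was at 2.09 TPM there, Hoxa9 at 0.995, Hoxa3 at 0.0593 and Hoxa10 at 0. The separation of the Hoxa sums thus rested on Hoxa5 in that library and does not describe the cluster. The gene with the highest share of the summed level differed between libraries, also within a genotype. Hoxa5 made up 99.8% of the summed Hox TPM in Foxm1 HET replicate 2 and 30.8% in replicate 3, where Hoxa9 made up 52.9%. In Foxm1 HET replicate 1, Hoxa7 made up 38.0%, Hoxa9 34.0% and Hoxa5 19.8%. Hoxa9 made up 90.3% in WT replicate 2, Hoxa10 made up 56.9% in WT replicate 3, and Hoxb5 made up 42.5% in WT replicate 1.

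**Figure D4:**
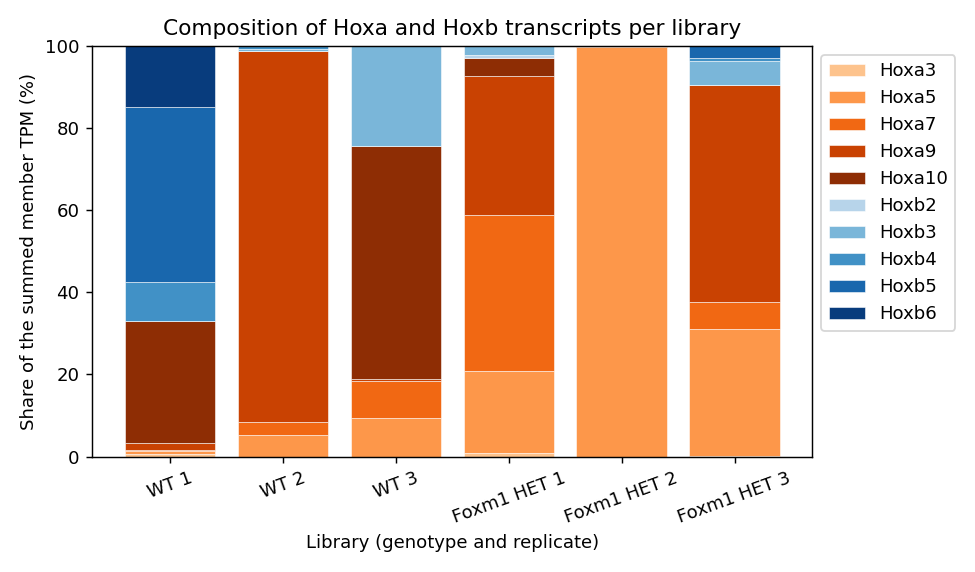
Share of the summed TPM of the 10 Hox genes (vertical axis, percent) in each library (horizontal axis), with Hoxa genes in orange and Hoxb genes in blue. The leading gene differs between the 3 libraries of each genotype, and Hoxa9 leads in both WT replicate 2 (90.3%) and Foxm1 HET replicate 3 (52.9%).

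Some Hox genes had most of their CPM in 1 library. Of the tested Hox genes, the library with the highest CPM held 97.7% of the summed CPM of Hoxa5, 79.1% of Hoxa9 and 63.7% of Hoxb3. It was 59.6% for Hoxa10, 53.2% for Hoxa7 and 37.2% for Hoxa3. Across all genes tested, that share had a median of 55.7%, with quartiles of 43.5% and 72.4%, so the tested Hox genes lay on both sides of the median. The share was 84.8% for Hoxb4 and 83.6% for Hoxb5, and Hoxb2 and Hoxb6 had all of it in 1 library. These genes failed the filter, which asks for reads in several libraries, so the share of the genes tested is no measure for them. Of the 12179 genes of the normalized table, 32.1% had at least 10 reads in only 1 or 2 libraries and 20.6% had them in all 6. Hoxb4 and Hoxb5 varied together over the 6 libraries (Pearson r of log2 CPM 0.973), as did Hoxb4 and Hoxb6 (0.821), while Hoxa5 and Hoxa7 had r of 0.644 and Hoxa9 and Hoxa10 had -0.55. These values are descriptive, since the points share libraries and their depth, and zeros give equal values to undetected genes. The 3 other genes whose log2 CPM was most like the mean z-score of the tested Hox genes were Cobll1 (r 0.997), Snrpa (0.985) and Pfdn5 (0.958), over the same 6 libraries. Their values were also highest in Foxm1 HET replicates 1 and 3.

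Of the other 29 Hox genes, 3 had a read. Hoxa2 had 1, 925 and 1 reads in the WT libraries against 152, 1 and 38 in the Foxm1 HET libraries, with a log2 fold change of -3.01 (SE 3.17, edgeR adjusted p = 0.998). Hoxa6 had 9, 0 and 42 reads in the WT libraries against 63, 0 and 0 in the Foxm1 HET libraries, and Hoxb1 had 1 read in all. None of the 18 Hoxc and Hoxd genes had a read in any library. Of the noncoding transcripts in the clusters, Hotairm1, which is transcribed from the start of the Hoxa cluster, had 277 reads in WT replicate 2 and 1 in Foxm1 HET replicate 2. WT replicate 2 was also the library with most Hoxa2 reads.

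Among the partners and regulators, no gene passed the adjusted threshold. Of the 11 TALE cofactors 7 were tested, 1 with a log2 fold change above 0 and 6 below, with a median of -0.48 against -0.26 over all genes tested. Meis1, the partner of Hoxa9, had 458, 3395 and 2413 reads in the WT libraries against 7322, 191 and 3653 in the Foxm1 HET libraries. The genotypes overlapped for Meis1.

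All 17 MLL-complex and DOT1L activators were tested, 9 above 0 and 8 below, with a median log2 fold change of 0.33. Dot1l, the histone H3 lysine methyltransferase recruited by MLL fusion proteins, had 543, 2052 and 26 reads in the WT libraries against 823, 26916 and 838 in the Foxm1 HET libraries. The log2 fold change of Dot1l was 5.17 (SE 1.67, edgeR adjusted p = 0.193). Foxm1 HET replicate 2, which held most Hoxa5 reads, also held most Dot1l reads. By library size, 10.8% of all genes tested were highest in that library, and a link between Dot1l and Hoxa5 was not tested. Of the 20 Polycomb genes 16 were tested, 4 above 0 and 12 below, with a median of -0.50. Of these, Jarid2 had 169, 2203 and 23200 reads in the WT libraries against 7320, 433 and 2261 in the Foxm1 HET libraries. Of the 19 caudal and retinoid regulators 10 were tested, 5 in each direction, with a median of 0.05. The caudal genes Cdx1, Cdx2 and Cdx4, which activate Hox genes in embryos, had no read in any library. Aldh1a1, which makes retinoic acid, had 81, 0 and 10 reads in the WT libraries against 317, 3504 and 268 in the Foxm1 HET libraries, with no overlap (log2 fold change 7.01, SE 2.54, edgeR adjusted p = 0.359). Usf1, a factor that binds Hoxb4 regulatory sequence, had 2, 3800 and 1 reads in the WT libraries against 51, 1 and 12 in the Foxm1 HET libraries (log2 fold change -6.53, adjusted p = 0.808).

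Of 17 known HOX targets in blood cells, 16 were tested, 9 above 0 and 7 below, with a median log2 fold change of 0.07. Mecom, a stem cell factor, had 910, 4431 and 60 reads in the WT libraries against 1393, 21758 and 9561 in the Foxm1 HET libraries (log2 fold change 3.91, SE 1.60, edgeR adjusted p = 0.555). Its genotypes overlapped.

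Markers of other cell types moved between libraries. Those of T cells, megakaryocytes and endothelial cells were nearly absent from WT replicate 2. T cell markers were nearly absent from WT replicate 1 too, at 0.226 CPM with TMM factors. The 10 neutrophil and myeloid markers summed to 5362 to 21213 CPM in WT and 972 to 18520 CPM in Foxm1 HET (TMM factors, as for the sums that follow). Ngp, a granule gene, had 90503, 58729 and 123102 reads in the WT libraries against 82301, 36215 and 1959 in the Foxm1 HET libraries. The 6 endothelial markers summed to 0.841 to 85.7 CPM in WT and 40.3 to 241 CPM in Foxm1 HET, and Sox17 among them had no read. The genotypes overlapped on this scale but not by library size alone, where the sums were 0.826 to 63.7 and 65.3 to 107 CPM. Erythroid markers summed to 114 to 160 CPM in WT and 142 to 440 CPM in Foxm1 HET, which overlapped, against 112 to 158 and 195 to 301 CPM by library size alone, which did not. Car1, a carbonic anhydrase, carried the Foxm1 HET sums. Without it the erythroid markers were at 67.4 to 160 CPM in WT and 9.80 to 81.9 CPM in Foxm1 HET, which overlapped. By library size alone they were at 74.3 to 119 CPM in WT and 15.9 to 36.4 CPM in Foxm1 HET. On that scale the direction thus reversed without Car1, with Foxm1 HET lower and no overlap. Of the 6 erythroid markers tested, 1 had a log2 fold change above 0 and 5 below, with a median of -2.90. T cell markers summed to 0.0443 to 23.2 CPM in WT and 11.1 to 81.4 CPM in Foxm1 HET. The megakaryocyte markers, at 0.0443 to 10.5 and 10.5 to 16.8 CPM, met at the edge of the ranges. The B cell markers ran the other way, at 273 to 1825 CPM in WT and 51.0 to 206 CPM in Foxm1 HET, and overlapped by library size alone. Macrophage markers summed to 13.9 to 200 CPM in WT and 2.87 to 129 CPM in Foxm1 HET. The 12 LT-HSC markers, at 2911 to 6627 CPM in WT and 2768 to 12630 CPM in Foxm1 HET, overlapped between genotypes. None of the genes tested in these lists passed the adjusted threshold (edgeR). The macrophage genes C1qa and C1qb, the B cell genes Cd79a, Ebf1 and Ms4a1 and the T cell genes Cd3d and Cd3g had no reads in any library. Whether cells of other types contributed to the Hoxa differences was not tested.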

How the data were processed

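Sorted LT-HSCs of 3 mice per genotype were profiled by RNA-Seq. The authors aligned single 50-base reads to GRCm38 with STAR 2.7.2b. The sources differ on the library kit, and the counting program and use of strand are not given in the sources used here. Deposited values were the authors' gene-level counts, not normalized, and a table the authors had normalized, on a log2 scale. Counts were analysed in edgeR 4.0.16 (R 4.3.3) with its default filter, TMM scaling and its quasi-likelihood test, and p-values were adjusted over 8195 genes (Benjamini-Hochberg) with a threshold of 0.05. Log2 CPM used a prior count of 2. TPM was computed from counts and exon length. The edgeR fit was also run on simulated counts, with a spread far below that of the data and with the estimated spreads. The outcome is not given here and lends no support to the calls. DESeq2 1.42.0 and limma 3.58.1 were alternatives. RefSeq promoters were searched for motifs, and 50-base stretches of GENCODE transcripts were compared between genes. Named genes were the 10 Hox genes, of each list those with unadjusted p under 0.05 or up to 3 of the highest level, Foxm1, and the 3 genes most like the Hox pattern. Sort markers, genes without reads and transcripts overlapping a Hox gene were named after their values were seen. Some genes that the rule covers are not reported here. The Hox genes, lists and motifs were chosen with earlier results of these data known. That the replicates are separate mice is the study's description, and p-values measure the spread between them. Counts cannot separate PCR duplicates, so counting error is understated.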

Additional observations from a re-analysis of the deposited data

How the results depend on the processing

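edgeR called 27 genes, 96.3% of them higher in Foxm1 HET. The count was 10 with RLE scaling, 43 with upper-quartile scaling, 7 with library size alone (85.7% higher), 194 with DESeq2 (59.8% higher) and 4 with limma-voom, all lower. It was 0 with at least 10 counts in every library (edgeR, 157 genes at an unadjusted p under 0.05) and 0 with limma on the deposited table (576). Leaving out 1 library gave 0 to 29, with 0 without WT replicate 1, WT replicate 2 or Foxm1 HET replicate 2. The median log2 fold change of all genes, -0.26, was -0.13 with RLE, 0.14 with upper quartile and 0.10 with library size alone. Hox genes called, 1 in the fit above, were 0 with RLE, limma-voom and limma on the deposited table, and 0 to 1 when 1 library was left out. The Hoxa5 adjusted p ranged from 0.00109 to 1 over the alternatives, and its log2 fold change was above 0 in all of them. DESeq2 gave no p for Hoxa5, because of a count outlier in Foxm1 HET replicate 2, so no count of Hox genes was made there, and no Hox gene had 10 counts in every library. The Hoxb3 log2 fold change reversed to -0.054 in the deposited table, and ran from -1.30 without Foxm1 HET replicate 3 to 6.68 without WT replicate 3. Hox genes with no overlap, all higher in Foxm1 HET, numbered 2 in log2 CPM, where 4.12% of all genes tested had that pattern. They numbered 3 in the deposited table, with Hoxa9 added on that scale only, against 5.87% of all its genes. No count is given with 1 library left out, since smaller groups separate more easily and the share over all genes was not computed there. Of the 8 Hox genes in the normalized table, 3 kept their TPM rank by CPM and 4 by the deposited values. A robust edgeR fit, chosen after seeing the data, called 22 genes and kept Hoxa5 (adjusted p = 0.00498).

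With a replicate block, edgeR called 0 genes (108 at an unadjusted p under 0.05) and 0 Hox genes. The study describes 3 pairs of mice, but no source says that a replicate number marks a pair, and deviations of same-numbered libraries correlated at 0.0162, -0.0253 and -0.0687, so the block was not used as the pairing.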
